A study of Caenorhabditis elegans with 2 samples.

Results

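Sites between divergent gene starts are places where ChIP-seq signal for the worm Argonaute HRDE-1 (WAGO-9) peaked in the DNA that separates a pair of genes transcribed away from each other. A site was taken when its summit, the position of highest signal, lay on an autosome, inside no protein-coding gene and more than 500 bp from the start of every tRNA, snoRNA and snRNA gene. The nearest protein-coding gene on its left had to be on the minus strand and the nearest on its right on the plus strand. This gave 2215 sites of the 30000 candidates in the authors' pooled list, of which 27148 were autosomal. The choice used positions and annotation only, not the signal.

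The data come from Caenorhabditis elegans strain YL557, a transgenic line that stably carries HRDE-1 (WAGO-9) fused at its C terminus to GFP and FLAG. Hermaphrodites were collected as young adults, 48 hours after L1 larvae held in starvation following bleaching had been released. Chromatin of whole animals was sheared by sonication and precipitated with an antibody to GFP, according to the sample description, although the labels name hrde-1 as the antibody. The labels give 1 group with 2 biological replicates and no second condition, so no comparison between treatments or genotypes was possible. Germ line and soma were not separated, so a site cannot be assigned to a tissue. The labels used here do not say which promoter drives the fusion or whether untagged HRDE-1 was also present. The control to which the authors compared the signal was not analysed here.

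HRDE-1 is a nuclear Argonaute of the germ line. It is loaded with secondary small RNAs, recognises nascent transcripts with matching sequence and is known for heritable silencing with histone H3 lysine 9 methylation at its targets. Genes in the worm genome are tightly packed, and a spacer between divergent starts holds the promoters of both genes, often within a single nucleosome-depleted stretch of DNA. A spacer between tandem genes holds 1 gene start and 1 gene 3′ end, and a spacer between convergent genes holds 3′ ends only.

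The authors also gave a list thresholded by the irreproducible discovery rate (IDR), which keeps candidates that rank alike in the replicates. Its 1341 sites had the 1341 highest scores of the pooled list, so membership in it is the same as a score threshold. Among the 2215 divergent sites, 134 were in the IDR list, and these are called IDR sites below. The score is the authors' value for each candidate. Its scale is unknown, so scores are compared here only within 1 list. The lists hold no read counts, so the sequencing depth of the replicates is unknown.

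The DNA under the strongest sites is shown first, because base composition at the summit differed between the IDR sites and the other divergent sites. Each line gives the 300 bp centred on a summit, plus strand, 5′ to 3′, from the RefSeq copy of assembly WBcel235 (ce11), and every window lies wholly in the spacer between its genes. Capitals mark 3 short motifs on either strand, the GC box GGGCGG, the E2F core TTCCCGC and the CG repeat GCGCGC, with overlapping matches joined. The first 6 are the highest scoring IDR sites that could be shown under the rule for named sites.
rpl-20/Y17G9B.5 (chrIV:4749914-4750213): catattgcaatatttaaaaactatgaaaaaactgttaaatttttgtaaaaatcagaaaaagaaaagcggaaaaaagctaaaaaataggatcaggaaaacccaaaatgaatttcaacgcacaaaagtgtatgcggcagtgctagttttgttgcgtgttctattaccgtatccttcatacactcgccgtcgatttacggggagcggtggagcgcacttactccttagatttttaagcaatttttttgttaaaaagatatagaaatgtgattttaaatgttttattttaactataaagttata
Y22D7AL.10/hsp-60 (chrIII:1618977-1619276): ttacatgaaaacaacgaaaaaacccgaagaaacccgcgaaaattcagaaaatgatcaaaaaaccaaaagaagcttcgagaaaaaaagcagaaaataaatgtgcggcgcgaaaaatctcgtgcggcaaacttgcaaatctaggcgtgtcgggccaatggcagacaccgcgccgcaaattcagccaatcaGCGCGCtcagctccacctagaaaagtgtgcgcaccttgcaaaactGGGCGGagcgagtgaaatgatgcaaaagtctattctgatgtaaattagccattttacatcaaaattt
ZK652.8/rpl-35 (chrIII:7854555-7854854): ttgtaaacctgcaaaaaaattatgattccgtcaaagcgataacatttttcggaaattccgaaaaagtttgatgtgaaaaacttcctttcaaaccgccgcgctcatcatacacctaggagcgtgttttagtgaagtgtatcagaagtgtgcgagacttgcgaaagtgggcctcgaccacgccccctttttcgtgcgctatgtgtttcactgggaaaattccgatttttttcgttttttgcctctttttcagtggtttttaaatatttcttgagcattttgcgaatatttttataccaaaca
ins-17/cpg-1 (chrIII:4488969-4489268): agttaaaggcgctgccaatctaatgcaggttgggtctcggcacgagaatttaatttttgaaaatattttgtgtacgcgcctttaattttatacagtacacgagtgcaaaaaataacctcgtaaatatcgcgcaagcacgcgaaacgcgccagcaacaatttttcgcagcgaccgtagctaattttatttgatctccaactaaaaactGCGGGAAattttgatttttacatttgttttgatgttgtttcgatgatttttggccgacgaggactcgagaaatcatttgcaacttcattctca
K12H4.6/K12H4.5 (chrIII:8043805-8044104): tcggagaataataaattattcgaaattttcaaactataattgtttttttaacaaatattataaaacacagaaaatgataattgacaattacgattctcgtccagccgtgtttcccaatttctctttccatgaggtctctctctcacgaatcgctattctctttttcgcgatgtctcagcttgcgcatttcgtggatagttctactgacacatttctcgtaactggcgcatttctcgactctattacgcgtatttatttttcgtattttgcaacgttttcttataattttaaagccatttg
drr-2/set-16 (chrIII:13643614-13643913): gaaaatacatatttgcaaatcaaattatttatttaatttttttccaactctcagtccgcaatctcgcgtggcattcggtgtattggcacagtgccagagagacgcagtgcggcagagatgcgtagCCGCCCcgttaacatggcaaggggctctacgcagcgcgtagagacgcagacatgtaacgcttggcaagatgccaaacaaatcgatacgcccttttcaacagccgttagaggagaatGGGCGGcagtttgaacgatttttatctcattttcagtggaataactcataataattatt
The next was added after the motif counts had been seen, to show a longer CG repeat.
lin-9/unc-32 (chrIII:8904132-8904431): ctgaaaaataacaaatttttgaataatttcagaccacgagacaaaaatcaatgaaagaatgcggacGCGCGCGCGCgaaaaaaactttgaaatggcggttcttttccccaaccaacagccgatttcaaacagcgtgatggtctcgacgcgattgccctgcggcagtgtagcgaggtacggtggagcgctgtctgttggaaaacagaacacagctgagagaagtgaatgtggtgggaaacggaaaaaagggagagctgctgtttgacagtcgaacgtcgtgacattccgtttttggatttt
The last is the highest scoring divergent site outside the IDR list.
Y50D4C.5/ergo-1 (chrV:1003928-1004227): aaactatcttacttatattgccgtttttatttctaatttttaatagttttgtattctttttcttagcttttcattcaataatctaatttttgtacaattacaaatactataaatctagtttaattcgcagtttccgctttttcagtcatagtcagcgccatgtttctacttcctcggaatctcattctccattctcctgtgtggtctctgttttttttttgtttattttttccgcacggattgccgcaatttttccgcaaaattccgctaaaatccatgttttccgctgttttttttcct
The 8 windows have no common order of motifs. The windows of rpl-20, rpl-35 and K12H4.5 held none of the 3 motifs, that of hsp-60 held a CG repeat and a GC box, that of set-16 held GC boxes only, and that of cpg-1 held an E2F core. GC content ran from 31.0% at rpl-20 to 46.7% at lin-9, and it was 31.7% at ergo-1, outside the IDR list.

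The highest divergent site lay between rpl-20, which encodes a protein of the large ribosomal subunit, and Y17G9B.5, annotated by RefSeq as a mitochondrial signalling intermediate in the Toll pathway. Its summit at chrIV:4750064 scored 306 in the pooled list, 73.0 in replicate 1 and 235 in replicate 2, and stood 286 bp upstream of rpl-20 and 176 bp upstream of Y17G9B.5. The second highest, at chrIII:1619127, separated the genes of a mitochondrial chaperone pair, hsp-60 and Y22D7AL.10, which RefSeq annotates as the 10 kDa heat shock protein. It scored 256 in the pooled list, 73.3 in replicate 1 and 179 in replicate 2. Both sites were among the 100 highest candidates of each replicate.

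A site 429 bp upstream of rpl-35, another gene of the large ribosomal subunit, scored 233 in the pooled list, 62.8 in replicate 1 and 166 in replicate 2. A site 58 bp upstream of tasp-1, which encodes a taspase-type protease, scored 232 in the pooled list, 49.9 in replicate 1 and 180 in replicate 2. The site upstream of cpg-1, which encodes a chondroitin proteoglycan of the eggshell, scored 215 in the pooled list, 72.0 in replicate 1 and 142 in replicate 2. The replicates therefore put these sites in a different order: tasp-1 was above cpg-1 in replicate 2 and below it in replicate 1. The site between the uncharacterized genes K12H4.6 and K12H4.5 scored 209 in the pooled list, 44.9 in replicate 1 and 167 in replicate 2.

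The spacer of rpl-12 and lin-54 joins a ribosomal protein gene to the gene of the DNA-binding subunit of the DREAM repressor complex. Its summit lay 55 bp from rpl-12 and 338 bp from lin-54, and it scored 197 in the pooled list, 49.5 in replicate 1 and 152 in replicate 2. The summit between drr-2 and set-16, which encodes an MLL-type histone H3 lysine 4 methyltransferase, scored 194 in the pooled list, 68.1 in replicate 1 and 126 in replicate 2. The site between egrh-2, a zinc finger gene, and lep-2, a Makorin gene, scored 194 in the pooled list, 70.2 in replicate 1 and 130 in replicate 2. These sites show both layouts seen among the strongest members, a summit close to both starts and a summit in a longer spacer. The site 667 bp upstream of hcp-3, which encodes the centromeric histone H3 variant, scored 191 in the pooled list, 62.2 in replicate 1 and 130 in replicate 2, in a spacer of 3240 bp shared with hlh-11.

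The other 10 of the 20 highest sites scored between 156 and 180 in the pooled list. They lay between rpl-15 and K11H12.8, cux-7 and C07H6.2, smn-1 and klp-16, ecps-1 and atx-2, cct-8 and Y55F3AR.2, sec-61.G and F32D8.7, tbb-1 and rib-2, F43G6.16 and F43G6.4, F56G4.6 and wbp-4, and K09H9.7 and K09H9.1. Their genes include a subunit of the CCT chaperonin (cct-8), a subunit of the secretory translocon (sec-61.G), a beta tubulin (tbb-1), the survival of motor neurons homologue (smn-1) and a kinesin (klp-16). Of these 10, the site of rpl-15 was the highest in the pooled list, at 180, with 38.1 in replicate 1 and 142 in replicate 2. The lowest, that of K09H9.1, scored 156 in the pooled list, 40.8 in replicate 1 and 116 in replicate 2. All 20 sites had a summit within 100 bp in each replicate's own list.

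**Figure D1:**
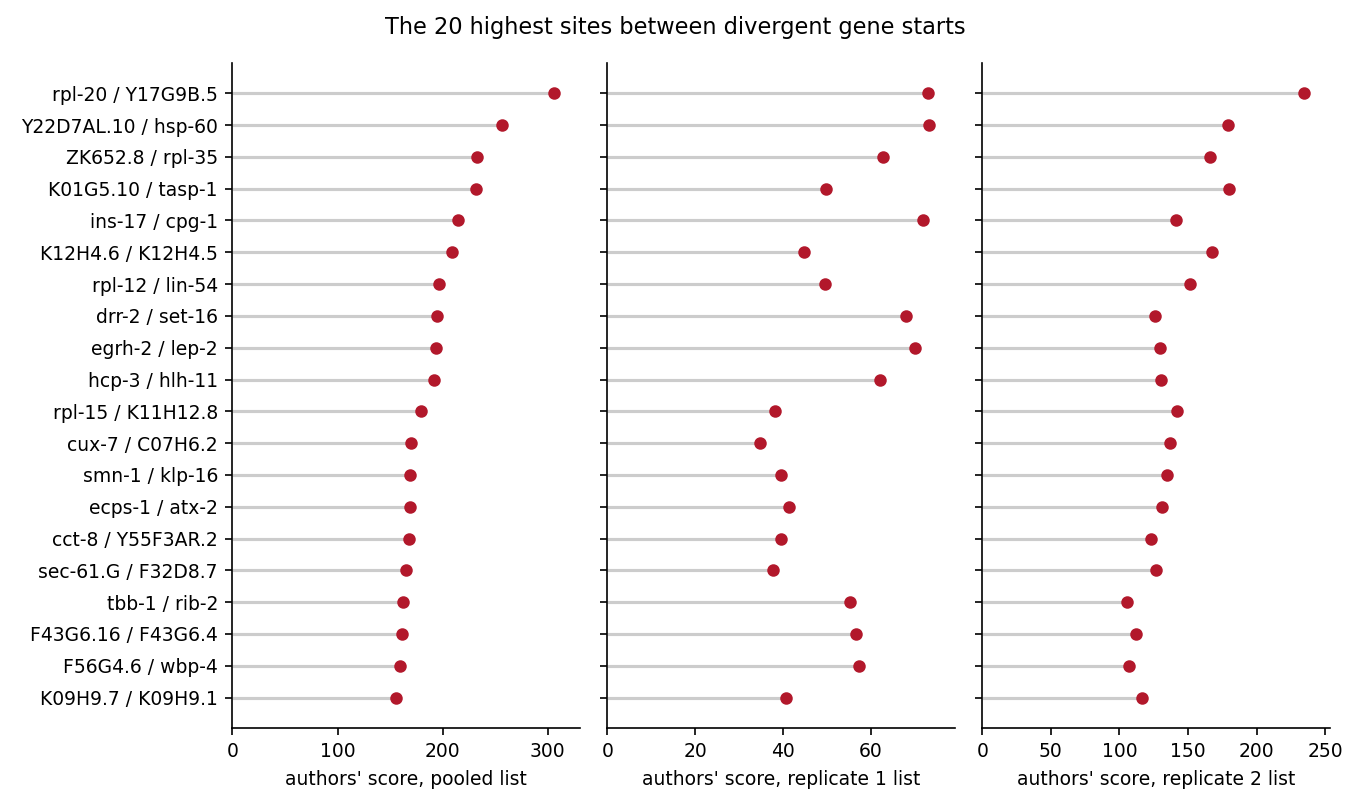
Scores of the 20 highest sites between divergent gene starts, named by their left and right genes, in the pooled list (left), in replicate 1 (middle) and in replicate 2 (right); each point is the authors' score in that list and the 3 axes have separate scales. rpl-20 leads the pooled list at 306 and replicate 2 at 235, and in replicate 1 it lies beside hsp-60 at about 73.

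IDR sites made up 6.05% of the divergent sites (134 of 2215, exact 95% interval 5.09 to 7.12), and 4.42% of all autosomal candidates were in the IDR list. The share was 6.55% for sites between tandem genes (280 of 4276, 5.82 to 7.33) and 9.44% for sites between convergent genes (85 of 900, 7.61 to 11.5). The interval for divergent sites overlapped that for tandem sites and lay below that for convergent sites. Intervals cover counting error only, and neighbouring sites are not independent. Among the autosomal candidates of replicate 1, 5.76% were in its 1341 highest, and 6.34% of its 1831 divergent candidates were. In replicate 2 the values were 4.44% of the autosomal candidates and 5.59% of 2270 divergent candidates. The mean of the replicates was 5.97% ± 0.524 (SD, n = 2) for divergent sites, 7.23% ± 0.703 (SD, n = 2) for tandem sites and 10.1% ± 1.25 (SD, n = 2) for convergent sites, so the order of the 3 classes was the same in each replicate. In spacers of at most 5000 bp the pooled shares of divergent and tandem sites changed order, with 8.27% and 8.19%.

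Counted per length of spacer over all spacers, the divergent class had the fewest IDR sites. It held 13.5 per Mb over 9.89 Mb of spacer outside the excluded small RNA starts, against 17.5 per Mb over 16.0 Mb for tandem and 24.9 per Mb over 3.42 Mb for convergent spacers. Divergent spacers were the longest of the 3 classes, with a median of 1188 bp against 779 bp and 554 bp. At like spacer lengths the order varied. From 501 to 1000 bp divergent spacers held 54.4 IDR sites per Mb, tandem 36.6 and convergent 42.8, and from 1001 to 2000 bp they held 23.2, 17.2 and 16.3. In the other length ranges divergent spacers held the fewest, but in each of these at least 1 other class was close. No interval was made for a density, so these orders are not resolved. Up to 500 bp the densities were 164.6, 165.7 and 212.4 per Mb in the same order of classes. From 2001 to 5000 bp they were 10.53, 10.57 and 12.5, and above 5000 bp 3.07, 4.54 and 3.37. Counted per spacer, 3.49% of divergent spacers (127 of 3641, 2.92 to 4.14) held at least 1 IDR site, against 3.09% of tandem and 3.37% of convergent spacers. The intervals of the 3 shares per spacer overlapped.

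The scores of divergent sites ran from 14.2 to 306 with a median of 23.4, so most members were weak candidates. The IDR sites ran from 74.1 to 306 with a median of 100, and the other 2081 had a median of 22.6. At the threshold, the lowest IDR sites were those of saps-1 at 74.4, cpf-2 at 74.2 and Y48G10A.2 at 74.1. The highest sites below it were those of Y50D4C.5 and ergo-1 at 72.9, Y25C1A.8 at 72.9 and npp-9 at 72.8, so no gap in score separated the 2 sets. ergo-1 encodes the Argonaute of a class of endogenous small interfering RNAs, and its site lay 334 bp from the start of Y50D4C.5 and 4725 bp from that of ergo-1 itself. The site scored 10.5 in replicate 1 and 62.3 in replicate 2.

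Strong sites lay in short spacers and close to a start. The spacer around an IDR site had a median length of 877 bp (interquartile range 446 to 3013, full range 14 to 14392), against 3276 bp for the other divergent sites. The nearer of the gene starts was a median of 205 bp from an IDR summit and 486 bp from the other summits. It was within 500 bp for 109 of the 134 IDR sites (81.3%) and for 50.6% of the others. Both starts were within 500 bp for 57 IDR sites (42.5%) and for 17.9% of the others. Over all 2215 sites the score fell with spacer length (Spearman's rho −0.29) and with distance to the nearer start (rho −0.28), 2 measures that are linked because a short spacer allows no long distance.

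The share of divergent sites that were in the IDR list fell step by step with spacer length. It was 14.8% in spacers of up to 500 bp (40 of 271), 9.35% from 501 to 1000 bp (30 of 321), 7.19% from 1001 to 2000 bp (22 of 306), 4.76% from 2001 to 5000 bp (24 of 504) and 2.21% above 5000 bp (18 of 813). Tandem and convergent sites had the same order, from 14.9% to 2.67% and from 27.5% to 2.21%. The share of spacers that held an IDR site changed much less, from 4.61% of the shortest to 2.66% of the longest divergent spacers, and their intervals (3.31 to 6.22 and 1.53 to 4.28) overlapped.

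Measured by distance, IDR sites were concentrated close upstream of the divergent genes. Their density was 42.6 per Mb within 100 bp of the nearer start, 57.2 per Mb from 101 to 250 bp and 23.3 per Mb from 251 to 500 bp. It was 11.3 per Mb from 501 to 1000 bp, 3.02 per Mb from 1001 to 2000 bp and 0.282 per Mb beyond, where 1 IDR site lay in 3.55 Mb. The other divergent sites fell off less steeply, from 465 to 111 per Mb between the first and the last of these distances. On the start side of tandem spacers the density was 40.8 per Mb within 100 bp but 23.9 and 8.04 per Mb in the next 2 ranges. Some tandem genes in the worm lie in operons, which are transcribed from 1 promoter, and starts inside operons were not told apart from other tandem starts here. On the 3′ end side of tandem spacers it was higher, at 74.1, 113 and 33.2 per Mb.

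**Figure D2:**
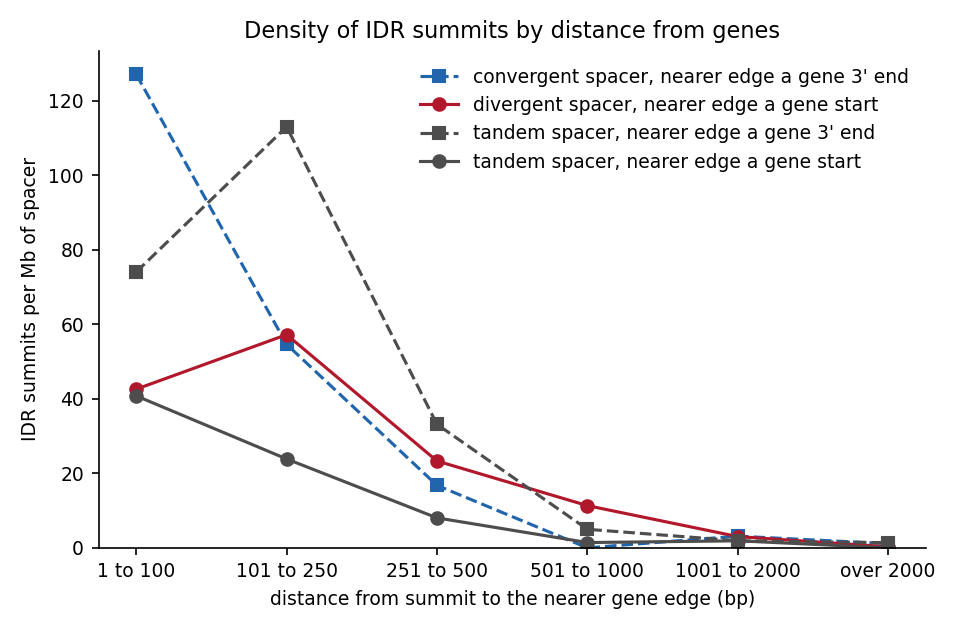
IDR summits per Mb of spacer (y axis) by the distance in bp from the summit to the nearer gene edge (x axis, 6 ranges) for divergent spacers, convergent spacers and the 2 sides of tandem spacers; solid lines are distances to a gene start and dashed lines distances to a gene 3′ end. The divergent line lies above the line for tandem starts in all 6 ranges, but narrowly within 100 bp (42.6 against 40.8) and beyond 2000 bp (0.282 against 0). The lines for 3′ ends are the highest within 100 bp.

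A summit between tandem genes can belong to the start of one gene or the 3′ end of the other, so gene starts were also compared in spacers of more than 1000 bp, where the edges are further apart. Of the 4004 divergent starts in such spacers, 38 (0.949%, 0.672 to 1.30) had an IDR summit within 500 bp upstream. Of 3681 tandem starts, 9 did (0.244%, 0.112 to 0.464), and the intervals did not overlap. Replicate 1 gave 33 divergent and 8 tandem starts (0.824% and 0.217%) with 1 of its 1341 highest candidates there. Replicate 2 gave 34 and 8 (0.849% and 0.217%). The difference had the same sign and nearly the same size in both replicates, but starts are not replicates and no test of it was made. For candidates of any score the shares were closer, 12.6% of divergent and 10.6% of tandem starts. Tandem 3′ ends in these spacers had an IDR summit within 500 bp in 2.34% of cases, a higher share than for starts of either kind.

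**Figure D3:**
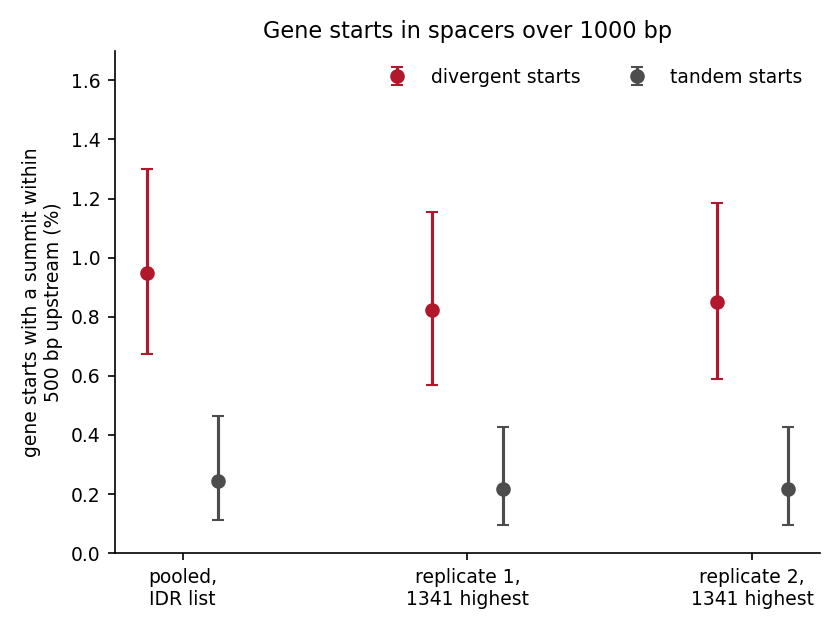
Percentage of gene starts in spacers of more than 1000 bp with a strong summit within 500 bp upstream (y axis), for 4004 divergent and 3681 tandem starts, in the pooled IDR list and among the 1341 highest candidates of each replicate; points are shares and bars exact 95% intervals for counting error. Divergent starts lie between 0.824% and 0.949% and tandem starts between 0.217% and 0.244%.

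By the rule that chose them, divergent sites face a gene start on each side, and 2 of the 134 IDR sites lay within 500 bp of the 3′ end of any protein-coding gene. Some genes beside the divergent IDR sites had a second strong site at their own 3′ end. An IDR summit lay within 500 bp of the 3′ end in 68 of 254 such genes (26.8%, 21.4 to 32.7). The share was 10.8% of the 2406 genes that flank other divergent sites alone and 4.78% of the 4622 genes beside a divergent spacer with no candidate. Among the 68 were the ribosomal protein genes rpl-20, rpl-35, rpl-12 and rpl-15, the chaperone genes hsp-60 and Y22D7AL.10, and cpg-1 and hcp-3.

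The replicates held nearly all of the IDR sites. Within 100 bp, 125 of 134 (93.3%, 87.6 to 96.9) had a summit in the list of each replicate, 2 only in replicate 1 and 7 only in replicate 2. For all autosomal IDR sites the share was 87.8%, and for the divergent sites outside the IDR list it was 20.8% (433 of 2081). The IDR list was made from these replicates, so a high share was favoured by the selection and is no independent support. The matching summit was a median of 21.0 bp away in replicate 1 and 2.5 bp away in replicate 2. The median score was 29.2 in replicate 1 and 71.4 in replicate 2, each within its own list, and these medians are not compared because the scale is unknown. Replicate 2 listed 30000 candidates against 24269 in replicate 1. Among the 1341 highest candidates of a replicate were 88 IDR sites in replicate 1, 114 in replicate 2 and 77 (57.5%) in both. The order of the 125 sites in the replicates was related with a Spearman's rho of 0.54, within a range narrowed by their selection on the pooled score.

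**Figure D4:**
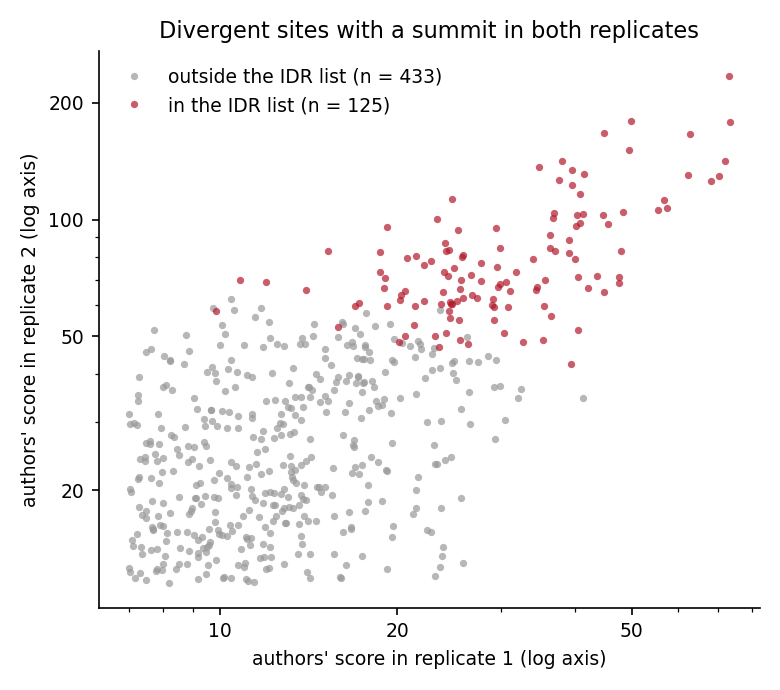
Authors' score in replicate 1 (x axis, log) against replicate 2 (y axis, log) for divergent sites with a summit within 100 bp in both replicates' lists, each point 1 site; red points are the 125 IDR sites and grey points 433 sites outside the IDR list. The red points form the upper right of the plot, with medians of 29.2 and 71.4.

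The DNA at the summits of IDR sites was rich in G and C. In the 40 bp at the summit the mean GC content was 48.1% ± 12.7 (SD over 134 sites) for divergent IDR sites and 37.0% ± 14.0 for the other divergent sites. The increase was narrow: at 120 bp to the left and to the right of the summit the IDR sites had means of 32.1% and 32.6%. These were below the 35.5% of the autosomes and near the median of 33.3% upstream of all divergent starts. Tandem IDR sites had like troughs at these distances, with 33.8% and 33.7%. At the summit, tandem IDR sites nearer to a start had a mean of 38.8% ± 11.7 (68 sites). Those nearer to a 3′ end had 40.04% ± 11.6 (212 sites), and convergent IDR sites had 37.9% ± 9.91 (85 sites). In the replicates the 1341 highest candidates that were divergent had 44.8% ± 12.6 (116 sites, replicate 1) and 48.0% ± 12.0 (127 sites, replicate 2), against 36.4% and 35.9% for their other divergent candidates. GC content can also affect how well a fragment is amplified and sequenced, and its part in the score was not tested.

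**Figure D5:**
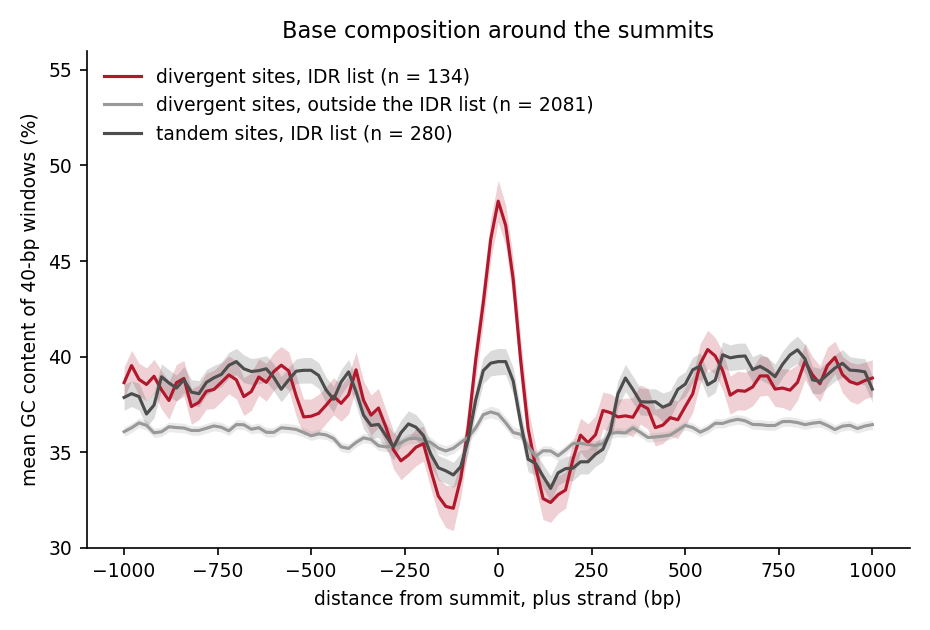
Mean GC content of 40-bp windows (y axis, %) by distance from the summit along the plus strand (x axis, bp) for 134 divergent IDR sites, 2081 other divergent sites and 280 tandem IDR sites; shading is the standard error over sites. The divergent IDR sites rise to 48.1% at the summit, between troughs near 32%, while the tandem IDR sites reach 39.7% and the other divergent sites 37.1%.

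Over the full 300 bp the difference was smaller. The median GC content was 38.5% for IDR sites, 34.7% for the other divergent sites and 33.3% in the 300 bp upstream of all divergent starts. The share of divergent sites in the IDR list was 1.95% among the sites with the lowest GC content (16.3 to 31.0%) and 8.44% among those with the highest (40.3 to 68.0%). Over all members the relation of GC content to score was weak (Spearman's rho 0.12). The dinucleotide CG occurred at a median of 1.49 times its expected frequency in IDR windows and 1.19 times in the others. Summits lay in repeat-masked bases at 26.9% of IDR sites and 39.6% of the others.

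The hexamer GCGCGC occurred in 33 of the 134 IDR windows (24.6%, 17.6 to 32.8). It occurred in 8.84% of the windows at other divergent sites and in 5.09% of the 300-bp windows upstream of all divergent starts. In tandem spacers it was also more frequent at IDR sites, with 11.4% (7.95 to 15.7) against 5.78% (5.08 to 6.55) at the other sites. In replicate 1 it was in 23.3% of the windows of the highest candidates and 7.99% of the rest, and in replicate 2 in 26.0% and 7.33%. The repeat is itself made of G and C, so it was also counted among windows of like GC content. Up to 35% GC it was in 16.7% of IDR windows (7 of 42, 6.97 to 31.4) and 5.45% of other divergent windows (4.18 to 6.98). From 35 to 40% the shares were 19.6% (9 of 46, 9.36 to 33.9) and 11.2% (8.57 to 14.3). Above 40% they were 37.0% (17 of 46, 23.2 to 52.5) and 13.8% (10.9 to 17.2), and only there did the intervals not overlap. The repeat lay within 75 bp of the summit in 29 of the 33 IDR windows (87.9%) and in 130 of the 184 other divergent windows that held it (70.7%). The 33 sites scored a median of 98.2, close to the 100 of the 101 IDR sites without the repeat, so within the IDR list the repeat did not go with a higher score.

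Other motifs differed less or in the other direction. The E2F core, the sequence bound by E2F and DP factors, was in 12.7% of IDR windows (7.57 to 19.5) and 5.33% of the others. By GC content the E2F core was in 11.9% (5 of 42, 3.98 to 25.6) and 3.60% (2.58 to 4.89) up to 35% GC. From 35 to 40% it was in 19.6% (9 of 46, 9.36 to 33.9) and 7.0% (4.92 to 9.60). Above 40% the shares were 6.52% (3 of 46, 1.37 to 17.9) and 7.41% (5.27 to 10.1). The intervals overlapped in each of these ranges. The GC box was in 13.4% (8.16 to 20.4) and 9.23%. The TATA box TATAAA was in 22.4% of IDR windows and 35.3% of the others, and the GATA site TGATAA, bound by the intestinal and hypodermal GATA factors, in 14.9% and 23.9%. Among windows of like GC content the TATA box was in 33.3% of IDR windows and 46.4% of the others up to 35% GC, in 19.6% and 30.6% from 35 to 40%, and in 15.2% and 16.0% above. The E-box CACGTG was in 2.99% and 5.29%, a run of T (TTTTTTTTT) in 12.7% and 19.2%, and a run of 5 A or T (AAAAA) in nearly all windows of both sets, 97.0% and 95.8%. A match is a description of letters and not evidence of binding by a factor.

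Genes of 30 lists were counted beside the IDR sites and read against the share of all genes that flank a divergent spacer, of which 3.49% (254 of 7282) had an IDR site in it. A site counts for both of its genes, so a listed gene may owe its count to its neighbour. Genes flanking any divergent site had a median highest score of 28.2. Because the lists were chosen with results known, their counts are given as descriptions.

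Among genes of protein synthesis and folding, 10 of 54 ribosomal protein genes flanked an IDR site (18.5%, 9.25 to 31.4), and their start was the nearer of the pair in 6. The median highest score of the 39 that flank any divergent site was 33.1, not far from the 28.2 of all genes. Of the genes of the CCT chaperonin, which folds actin and tubulin, 4 of 8 flanked an IDR site, namely cct-8, cct-7, cct-5 and cct-1 with 168, 84.9, 84.3 and 80.6. In each of these 4 the partner gene's start was the nearer one. The heat shock list had 2 of 11 (hsp-60 and hsp-110), the translation factors and tRNA synthetases 2 of 37 (ears-2 and eef-1A.1), the mitochondrial ribosomal proteins 1 of 31 (mrpl-28), and the proteasome 1 of 22 (rpn-3). Oxidative phosphorylation had 2 of 22, cox-5A, whose site scored 47.5 in replicate 1 and 71.2 in replicate 2, and cox-5B, with 40.1 and 79.0.

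Tubulins, actins and other abundant housekeeping genes had 7 of 14 (interval 23.0 to 77.0%) with a median highest score of 81.9 over the 11 that flank any divergent site. tbb-1 scored 162, tba-1 118.7, ubq-1, a polyubiquitin gene, 105 and act-1 92.3. Distance varied widely here: the summit lay 265 bp upstream of tbb-1 but 1076 bp from tba-1, where it was 25 bp from cox-5B, and 2472 bp from act-1, where it was 426 bp from act-2. The splicing factors had 4 of 25, prp-19 at 144, snr-1 at 95.4 and the SR protein genes rsp-2 and rsp-1, which share a spacer and its site at 91.4. The nucleoporins and transport factors had 3 of 29, npp-3 at 146, npp-8 at 107 and ima-1 at 90.7.

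Genes of the DREAM and synMuv B group, which represses germline and cell cycle genes in the soma, had 4 of 7 beside an IDR site (57.1%, 18.4 to 90.1). They were lin-54 at 197, lin-9 at 152, lin-53 at 142 and lin-35, the retinoblastoma homologue, at 114. The values in the replicates were 49.5 and 152 for lin-54, 44.6 and 103 for lin-9, 24.8 and 113 for lin-53, and 43.7 and 71.7 for lin-35, in replicate 1 and replicate 2. The start of the DREAM gene was the nearer of the pair for 3 of the 4. The highest scores of the 6 that flank any divergent site had a median of 128, the highest of the 30 lists. DNA replication and cell cycle genes had 6 of 22 (27.3%, 10.7 to 50.2), led by hcp-3 at 191, rpa-2, mcm-2 at 98.0 and cdc-6 at 86.0. The spacer of rpa-2 and kin-35 held 2 IDR sites, 1 with a score of 111 at 4679 bp from rpa-2 and 300 bp from kin-35, and 1 with a score of 90.5 at 735 bp from rpa-2.

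Heterochromatin and histone methylation genes had 5 of 16 (31.2%, 11.02 to 58.7), namely set-16 at 194, lin-35 at 114, jmjd-2, a histone demethylase gene, at 92.7, cec-5 at 83.8 and mrg-1 at 80.2. Oocyte and maternal genes had 6 of 20 (interval 11.9 to 54.3%), with cpg-1 at 215, the yolk receptor gene rme-2 at 112, cpg-2 at 101 and pos-1, which encodes an RNA-binding protein of the embryo, at 101. The replicate scores were 24.1 and 87.0 for rme-2 and 35.6 and 69.6 for pos-1, in replicate 1 and replicate 2. The median highest score was 61.2 over the 15 oocyte and maternal genes that flank any divergent site. Germ granule genes had 2 of 8, simr-1 at 90.0 and glh-2, a Vasa-type helicase gene, at 87.1.

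Genes of the small RNA pathway, to which HRDE-1 belongs, had 1 of 26 beside an IDR site (3.85%, 0.0973 to 19.6), close to the share of all genes. It was nrde-2, a nuclear RNAi factor known to act with HRDE-1, at 89.5 in the pooled list and 71.5 in replicate 2, and replicate 1 had no summit within 100 bp. Its summit was 746 bp from the start of nrde-2 and 607 bp from that of the partner gene, atad-3. Meiosis genes had 1 of 20 (coh-4), sperm genes 1 of 9 (spe-39, which shares its site with spn-4), and major sperm protein genes 0 of 19 (0 to 17.6%).

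Tissue and large family lists had shares below the 3.49% of all genes, but of these lists only the interval of the chemoreceptors lay below it. The intestine list had 0 of 9, muscle 0 of 6, neuron 0 of 6, hypodermis and cuticle 0 of 5 and collagens 0 of 47 (0 to 7.55%). C-type lectins had 0 of 98 (0 to 3.69%), MATH and BATH genes 0 of 21, chemoreceptors 1 of 473 (sri-5, 0.211%, 0.00535 to 1.17), nuclear hormone receptors 1 of 93 (nhr-274, 0.0272 to 5.85%) and F-box genes 1 of 130 (fbxb-85, 0.0195 to 4.21%). The site of nhr-274 was 13955 bp from its start and 438 bp from that of rps-28. Of the histone genes, 2 of 66 had an IDR site (3.03%, 0.369 to 10.5), close to the share of all genes; they were his-67 and his-68, which share it at 89.1. Of 30 divergent spacers between a pair of histone genes, 2 held any candidate and 1 an IDR site, with a median spacer length of 265 bp. Of all divergent spacers 36.5% held a candidate and 3.49% an IDR site. Of those up to 500 bp long, 28.9% held a candidate and 4.61% an IDR site.

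The divergent IDR sites were spread over all 5 autosomes and unevenly. Chromosome III held 36 and had the highest share of divergent spacers with 1 (6.31%, 4.43 to 8.66), followed by chromosome I with 33 (5.19%, 3.58 to 7.25), chromosome IV with 29 (3.52%, 2.29 to 5.15), chromosome II with 19 (2.49%, 1.48 to 3.91) and chromosome V with 17 (1.64%, 0.958 to 2.61). The intervals of chromosomes III and V did not overlap. As a share of divergent sites, IDR sites ran from 3.85% on chromosome V to 7.95% on chromosome III, and as a share of all candidates from 4.07% on chromosomes II and V to 4.86% on chromosome IV. Median lengths of divergent spacers were 949 bp on chromosome III and 944 bp on chromosome I, against 1265 to 1290 bp on the others, and the part of spacer length in the difference was not tested. Centres are here the middle part of each chromosome by equal division of its length, and arms the rest, so recombination domains were not used. Over the 5 autosomes, 3.70% of 1404 spacers in chromosome centres and 3.35% of 2237 in the arms held an IDR site, but single chromosomes differed in direction. On chromosome I they were 18 of 243 in the centre and 14 of 373 in the arms, and on chromosome II 4 of 269 and 14 of 454.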

How the data were processed

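HRDE-1 ChIP-seq peak lists of 2 replicates and their pool, on ce11, were used. The authors called candidates against a control and made a list by IDR; each deposited candidate has a score (column 7, as the usual layout of such lists has it), whose scale is not stated, and a summit. Neither the file headers nor the labels record how reads were aligned and sites called: which aligner, caller and IDR cutoff were used is not given in the sources used here. The lists hold no read counts, so the depth of each replicate is unknown, and no interval is given for a score.

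Summits were placed between protein-coding genes of the Ensembl annotation of WBcel235 (release 115), with 12 gene symbols from RefSeq, using Python 3.11.15, pandas 2.3.3, numpy 2.4.6 and scipy 1.17.1. Spacers are gaps between merged protein-coding genes. In each replicate the 1341 highest candidates were taken beside the IDR list. Shares have exact Clopper-Pearson 95% intervals for counting error. No tests between groups were made, because there is 1 group. Motifs were searched on both strands in 300-bp windows. Classification, matching and spacer lengths were tested on simulated data.

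The sites and the 30 gene lists were chosen with earlier results of these data known. Lists were written from general knowledge, and wago-3, rde-3, drh-2, nol-5 and opt-2 matched no gene. Named were the 20 highest IDR sites, up to 4 genes per list (more where a list had 5 or fewer), and the sites at each threshold. Genes named beside a partner that was named, and examples of genes with a site at their 3′ end, were chosen after their values were seen. Replicates were compared within 100 bp. The sequence of 1 further window is not reported here.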

Additional observations from a re-analysis of the deposited data

How the results depend on the processing

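No paired analysis was possible because the study has 1 group, so no groups share replicate numbers. The limits are these: read depth is unknown, the control was not analysed here, the IDR list is a threshold on the pooled score, and neighbouring sites share reads. With 1 replicate list in place of the pool, there were 1831 to 2270 members, an IDR share of 5.59 to 6.34%, a density of 11.7 to 12.8 per Mb, a share of spacers of 3.05 to 3.35%, a median spacer length of 825 to 983 bp, a median distance to the nearer start of 195 to 201 bp and a CG repeat in 23.3 to 26.0% of windows; the gap between divergent and tandem starts was 0.607 to 0.632 percentage points, against 0.705 in the pool. With no distance to small RNA starts, the IDR share was 7.21% and the density 16.7 per Mb. Leaving out summits inside any annotated gene gave 12.5 per Mb, with the spacer length not reduced. Keeping only IDR sites above the list's median score gave 2.98% and 6.67 per Mb by construction. Spacers of at most 5000 bp gave a share of 8.27%, a median spacer length of 716.5 bp and a median distance of 198.5 bp. In these spacers the share was 8.19% for tandem sites, so divergent and tandem changed order. Replicate lists matched for 70.9% of IDR sites within 50 bp and 97.8% within 200 bp. The gap between divergent and tandem starts was 0.416 points within 250 bp, 0.767 in spacers over 2000 bp and 0.811 with the RefSeq annotation; these alternatives, and the replicate values for that gap, the share of spacers and the CG repeat, were chosen after seeing the data. The RefSeq annotation, a distance of over 1000 bp and counting each interval once left the IDR share between 6.04 and 6.16%.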

Other observations

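The 500-bp distance to small RNA gene starts left out 100 of 2315 divergent summits, and 33 of the 100 were in the IDR list. Of the sites kept, those nearest to the limit were that of rpl-4 and B0041.8 (516 bp from a small RNA start), which scored 43.7, and that of let-70 and klc-1 (548 bp), which scored 51.6. Of those left out, the nearest to it were that of H06I04.6 and ubl-1 (389 bp), which scored 26.3, and that of Y37E3.8 and phb-1 (377 bp), which scored 44.6.

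IDR sites occurred 2 to a spacer in 7 of the 127 divergent spacers that held any. In the spacer of kin-35 and rpa-2, 4978 bp long, 1 summit lay 300 bp from kin-35 (score 111) and the other 735 bp from rpa-2 (score 90.5), so each gene had a site of its own. The spacer of ntl-11 and Y73F8A.27 had the same layout, with scores of 91.7 and 82.7 at 131 bp and 268 bp. The spacers of cpg-1, rps-24 and lep-2 had both summits on the side of 1 gene. In each of these spacers the 2 called intervals overlapped, at cpg-1 with chrIII:4489007-4489213 and chrIII:4489095-4489550. Both summits at rps-24 had the same nearest summit in replicate 2 (score 76.2), 238 bp and 0 bp away. Whether such overlapping intervals are separate sites was not tested. The spacers named in this paragraph were chosen after their values were seen. Of the 134 IDR summits, 10 (7.46%) lay in an annotated gene that does not code for protein, close to the 8.31% of other divergent summits. Of the 10, 8 lay in a gene annotated as ncRNA, 1 in a pseudogene and 1, between smn-1 and klp-16, in a miRNA gene.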
